A study of Mus musculus with 9 samples.

Results

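The cardiac sarcomere is built from proteins that exist as a fetal and an adult form. Followed here were the myosin heavy chains Myh7 and Myh6, the inhibitory troponins Tnni1 and Tnni3, and the actins Acta1 and Actc1. The last of the 4 pairs was the tropomyosin-binding troponins Tnnt1 and Tnnt2. The gene named first in each pair is called the fetal form. The 8 genes were chosen by name from the 54532 genes of the table, and all 8 were abundant enough to be tested. RNA was sequenced from right ventricular myocardium of C57BL/6 mice of wild-type genotype, operated at postnatal day 7, which is also the stage the labels give. The 9 libraries form 3 groups of 3: Sham (the control operation), VO (fistula surgery, which puts a volume load on the heart) and CsA (fistula surgery with injected Cyclosporin A, a blocker of the phosphatase calcineurin). Age at harvest, dose of Cyclosporin A and whether each library is a mouse of its own are not stated in the labels, so a p-value here measures sample spread that may be technical. Levels are FPKM, a fragment count divided by gene length and a depth factor of the library, which was not exactly its sum of fragments. Values are listed in the order of libraries 1, 2 and 3.

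In the rodent ventricle, Myh7, Tnni1 and Acta1 are made in the fetus and give way around and after birth to Myh6, Tnni3 and a rising dominance of Actc1. Myh6 encodes the fast alpha myosin heavy chain and Myh7 the slow beta chain. Tnni1 and Tnnt1 are the slow skeletal troponins, and Tnni3 and Tnnt2 are the cardiac ones. For Tnnt1 the word fetal is only a label of its place in the pair, and no switch from Tnnt1 to Tnnt2 is implied. Tnnt2 also changes its splice form during development, which a level per gene does not show. A loaded or failing adult mouse heart is known for bringing back Myh7 and Acta1, and calcineurin acts on heart muscle in part through the transcription factors NFAT. In RNA from whole tissue, fewer muscle cells and less RNA per cell cannot be told apart.

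Libraries held 12046288 to 15986747 fragments assigned to genes, and 3 features set some of them apart. Mitochondrially encoded genes took 11.01% of fragments in VO 3 and 22.18% to 26.34% in the other 8 libraries. The atrial light chain Myl7 was at 235 FPKM in Sham 1, 269.7 FPKM in Sham 3 and 68.3 FPKM in CsA 3, but at 0.959 to 13.2 FPKM in the other 6. Sham 2 alone carried the Y-linked Ddx3y, at 18.6 FPKM, and it was nearly without Xist, at 0.00401 FPKM, so sex was not balanced between groups. The levels of 10 ventricular muscle markers were summed, of which Atp2a2, the calcium pump, was the highest. Myh6 and Tnnt2 are among the 10, so the sum is not independent of the genes followed here. Atria also make Myh6, so the sum does not tell ventricle from atrium. The summed level of the 10 markers was 8009 to 8840 FPKM in Sham, 5079 to 8166 in VO and 6716 to 8997 in CsA, and none was at 0.

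The adult form was far above its fetal partner in every library. In Sham the order of mean levels was Actc1 at 8048 FPKM, Myh6 at 2240, Tnni3 at 1030, Tnnt2 at 357.2, Acta1 at 47.3, Myh7 at 5.54, Tnnt1 at 3.54 and Tnni1 at 2.06 FPKM. The 3 Sham libraries of neighbouring genes in this order did not overlap down to Acta1 and Myh7, whereas Myh7, Tnnt1 and Tnni1 overlapped each other from neighbour to neighbour. The order of the adult troponins depends on the length used. The deposited length of Tnnt2, 7752 bases, is 6.46 times that of its longest coding transcript in GENCODE M21, 1200 bases, and for Tnni3 the factor is 2.26. Per kilobase of the coding transcript, Sham means were 2465 ± 321 for Myh6, 2329 ± 181 for Tnni3 and 2307 ± 384 for Tnnt2 (SD, n = 3), and these 3 genes no longer separated. Ratios of FPKM between groups do not involve this length. The fitted changes below are on the log2(FPKM + 1) scale, where for low genes the added 1 makes them depend on it. For Tnni1 in VO against Sham, the fitted change was 1.84 with 1 added and 2.31 with 0.1 added.

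**Figure D1:**
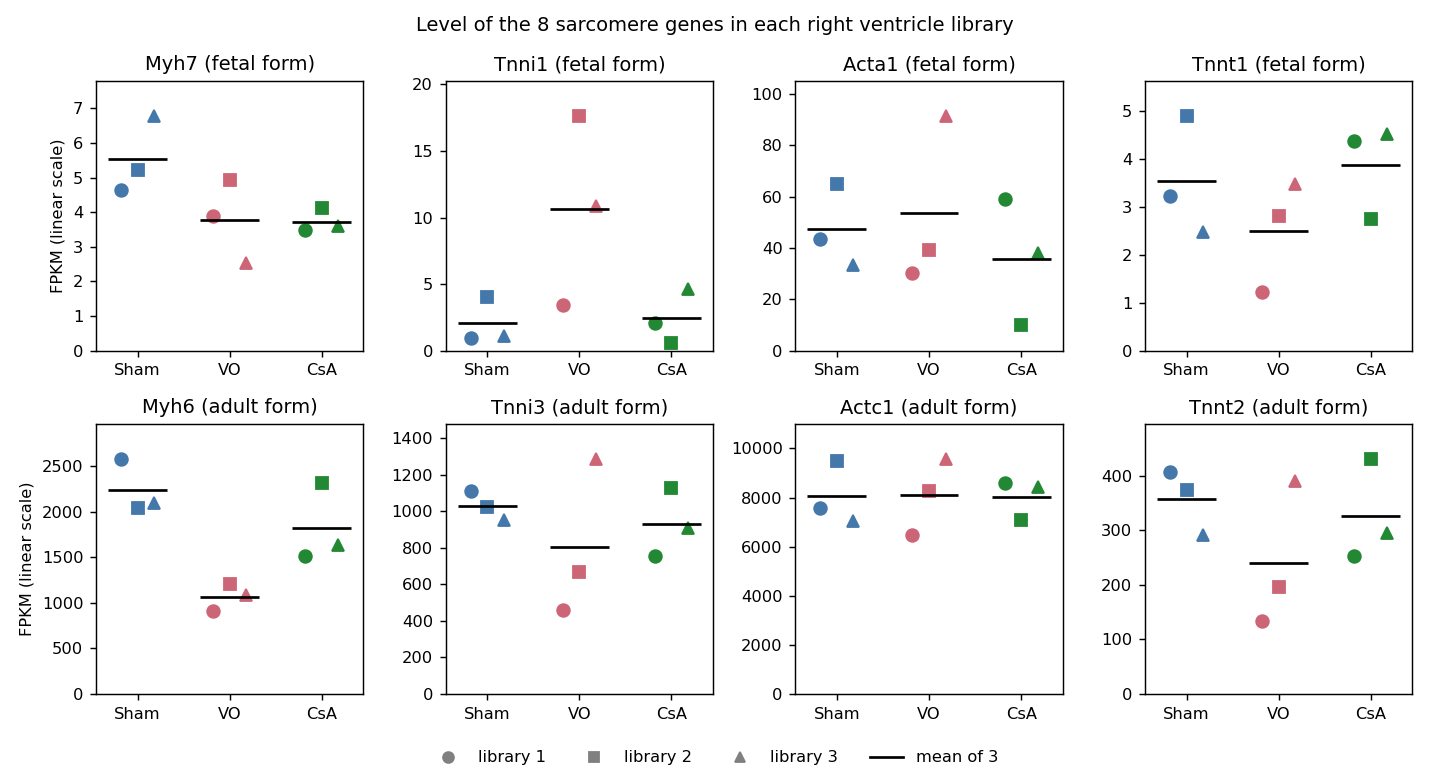
Level of each gene in each library, in FPKM on a linear axis from 0, with fetal forms above and adult forms below. Symbols mark libraries 1 to 3 of each group and bars the mean of 3. Myh6 in VO sits below every Sham and CsA library, Tnni1 is spread most widely, and the actins overlap in all groups.

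The myosin heavy chain genes lie next to each other on chromosome 14, on the minus strand and 3756 bases apart. Myh6 (ENSMUSG00000040752) spans 54941921 to 54966927 and Myh7 (ENSMUSG00000053093) spans 54970684 to 54994626 in GRCm38. Each holds a microRNA in an intron, shown here because the 2 microRNAs mark this isoform pair in sequence: miR-208a in intron 29 of Myh6-201 (chr14:54949072-54949093) and miR-208b in intron 31 of Myh7-204 (chr14:54975710-54975731). Mature sequences are from RefSeq (GRCm38.p6), 5′ to 3′, with the seed, bases 2 to 8, in capitals.
mmu-miR-208a-3p: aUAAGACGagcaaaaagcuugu
mmu-miR-208b-3p: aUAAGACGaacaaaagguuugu
The seed UAAGACG is the same in both, and 3 of 22 positions differ, all outside it. The library preparation is not one for small RNA, and the table gave the Mir208a locus 0 to 2 fragments and the Mir208b locus 6 to 29 fragments per library, which are not levels of the mature microRNAs.

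Myh6, the main motor protein of the mouse ventricle, was at 2576, 2048 and 2097 FPKM in the Sham libraries, at 905.3, 1205 and 1088 FPKM in the VO libraries, and at 1511, 2313 and 1631 FPKM in the CsA libraries. All VO libraries were below all Sham and all CsA libraries, while Sham and CsA overlapped. Group means were 2240 ± 292, 1066 ± 151 and 1818 ± 433 FPKM (SD, n = 3). The log2 fold change of Myh6 in VO against Sham was -1.07 ± 0.263 (SE), a fitted level 2.10-fold lower, with a limma adjusted p of 0.0501, just outside the threshold of 0.05.

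Myh7, the slow beta chain, was at 4.64, 5.22 and 6.77 FPKM in the Sham libraries, at 3.90, 4.92 and 2.54 FPKM in VO, and at 3.47, 4.11 and 3.60 FPKM in CsA. Sham was highest by mean, 5.54 ± 1.10 FPKM against 3.79 ± 1.196 in VO and 3.73 ± 0.337 in CsA (SD, n = 3), and every CsA library was below every Sham library. The fitted log2 difference of Myh7 was -0.47 ± 0.202 (SE) in VO against Sham (limma adjusted p = 0.158) and -0.46 ± 0.202 in CsA against Sham (limma adjusted p = 1). The fetal form was not higher in VO by mean, and its fitted value lay on the same side of 0 as that of Myh6.

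Reads of these genes are hard to separate from some of their neighbours. Of the 50-base windows in the longest coding transcript of Myh7, 22.2% also occur in that of Myh6, and 11.2% of 100-base windows do. For the other 3 pairs no such window is shared. The sources used here do not say how fragments that match several genes were counted, or whether strand was used. Mhrt, a transcript antisense to Myh7, stood at 4.69, 4.15 and 3.75 FPKM in Sham, 2.17, 2.87 and 1.29 FPKM in VO and 2.76, 3.26 and 3.07 FPKM in CsA. Mhrt in Sham was above both other groups in every library, as Myh7 was above CsA, and without strand the reads of Myh7 and Mhrt cannot be told apart.

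Tnni1 (ENSMUSG00000026418, chromosome 1, 135779434 to 135810989, plus strand) encodes slow skeletal troponin I, the inhibitory subunit of the fetal heart. Its level was 0.990, 4.05 and 1.14 FPKM in the Sham libraries, 3.45, 17.6 and 10.8 FPKM in the VO libraries, and 2.05, 0.584 and 4.63 FPKM in the CsA libraries. VO 2 and VO 3 were above all other libraries, but VO 1 was below Sham 2 and CsA 3, so the groups overlapped. The highest and lowest libraries differed 30.2-fold, the widest range among the 8 genes. The spread was wider than counting error: VO 2 held 818 fragments, with a 95% exact Poisson interval of 16.4 to 18.9 FPKM, and CsA 2 held 26, with an interval of 0.381 to 0.856 FPKM, both for counting error only. The fitted log2 difference of Tnni1 in VO against Sham was 1.84 ± 0.60 (SE; limma adjusted p = 0.0867) and that in CsA against VO was -1.72 ± 0.60 (limma adjusted p = 0.237). Without the 3 libraries high in Myl7 the former was at 0.98. That fit leaves Sham 2 as the only Sham library, which had the highest Tnni1 of its group and alone carried Ddx3y. Atrial content, sex and a single library thus cannot be told apart there.

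Tnni3 (ENSMUSG00000035458, chromosome 7, 4518305 to 4524229, minus strand), the adult cardiac troponin I, was at 1113, 1024 and 953.1 FPKM in the Sham libraries, at 460, 670.3 and 1284 FPKM in the VO libraries, and at 757.6, 1130 and 910.3 FPKM in the CsA libraries. VO 1 and VO 2 were the lowest libraries of all and VO 3 the highest, so the VO mean of 804.8 ± 428 FPKM describes none of its libraries. Sham and CsA means were 1030 ± 79.9 and 932.6 ± 187 FPKM (SD, n = 3). The fitted difference of Tnni3 in VO against Sham was -0.48 ± 0.356 on the log2 scale (limma adjusted p = 0.392).

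Tnnt2 (ENSMUSG00000026414, chromosome 1, 135836354 to 135852260, plus strand), which anchors the troponin complex to tropomyosin in the heart, showed the same split. It was at 406.1, 374.4 and 291 FPKM in the Sham libraries, at 134, 195.1 and 390.9 FPKM in the VO libraries, and at 253.4, 429.7 and 295.5 FPKM in the CsA libraries. VO 1 and VO 2 were again the lowest, and VO 3 was exceeded only by CsA 2 and Sham 1. The fitted log2 difference of Tnnt2 in VO against Sham was -0.70 ± 0.374 (SE; limma adjusted p = 0.239).

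Tnnt1 (ENSMUSG00000064179, chromosome 7, 4504570 to 4516382, minus strand), the slow skeletal troponin T, was at 3.23, 4.89 and 2.49 FPKM in the Sham libraries, at 1.22, 2.81 and 3.47 FPKM in the VO libraries, and at 4.37, 2.75 and 4.53 FPKM in the CsA libraries. The 3 groups overlapped, with means of 3.54 ± 1.23, 2.50 ± 1.16 and 3.88 ± 0.984 FPKM (SD, n = 3). The troponin genes are neighbours across the pairs rather than within them: Tnnt1 lies 1922 bases from Tnni3, and Tnni1 lies 25364 bases from Tnnt2, each couple on 1 strand. A fetal gene thus sits beside an adult gene of the other pair at both loci.

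Acta1 (ENSMUSG00000031972, chromosome 8, 123891769 to 123894751, minus strand), the skeletal actin, was at 43.6, 65.0 and 33.4 FPKM in the Sham libraries, at 30.2, 39.0 and 91.2 FPKM in the VO libraries, and at 59.1, 9.95 and 38.2 FPKM in the CsA libraries. The extremes were VO 3 and CsA 2, which differed 9.17-fold, and the groups overlapped. Actc1 (ENSMUSG00000068614, chromosome 2, 114047282 to 114053548, minus strand), the cardiac actin, was at 7575, 9507 and 7063 FPKM in Sham, at 6492, 8261 and 9552 FPKM in VO and at 8572, 7084 and 8444 FPKM in CsA. It varied least of the 8 genes, 1.47-fold over all libraries, with group means of 8048 ± 1289, 8102 ± 1536 and 8033 ± 825 FPKM (SD, n = 3). Neither actin separated the groups: the fitted log2 differences in VO against Sham were 0.06 ± 0.605 for Acta1 and 0.0034 ± 0.315 for Actc1 (SE; limma adjusted p = 0.959 and 0.997).

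The actin promoters are shown because both carry the same motif, whose part in the levels of either gene was not tested. They are the 200 bases before the RefSeq start site (GRCm38.p6, minus strand, 5′ to 3′), at chr8:123894776-123894975 and chr2:114052876-114053075. The whole Actc1 stretch lies within the annotated span of that gene, and 12 of its bases overlap an untranslated region in GENCODE M21. Capitals mark the CArG box, the motif bound by serum response factor. In Acta1 they also mark TATAAA, the letters of a TATA box, and CATTCC, the motif bound by TEAD factors.
Acta1: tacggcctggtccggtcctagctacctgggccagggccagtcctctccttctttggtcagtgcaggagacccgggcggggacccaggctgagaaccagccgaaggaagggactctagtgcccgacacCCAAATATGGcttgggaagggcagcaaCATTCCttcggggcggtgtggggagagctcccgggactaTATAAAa
Actc1: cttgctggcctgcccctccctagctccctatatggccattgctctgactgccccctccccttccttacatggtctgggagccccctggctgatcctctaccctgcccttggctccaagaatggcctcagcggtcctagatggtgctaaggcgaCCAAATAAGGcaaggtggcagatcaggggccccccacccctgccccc
The CArG box lay 73 to 64 bases before the start in Acta1 and 47 to 38 bases before it in Actc1, and in none of the other 6 promoters. In Acta1 TATAAA lay 7 to 2 bases before the start. The RefSeq starts, 123894775 for Acta1 and 114052875 for Actc1, differ from the deposited 5′ gene ends, 123894751 and 114053548. These distances thus depend on the start used. The CArG box occurs in 1.18% of 32851 RefSeq promoter windows of this length. The TEAD motif occurs in 10.1% of them and TATAAA in 9.96%. Of the other promoters, Tnnt1 held TATAAA and Tnnt2 held the TEAD motif. The core bound by NFAT factors, GGAAA, which 47.6% of promoters hold, had 2 matches in Myh7 and 1 each in Tnni3 and Tnnt1. The nuclear receptor core AGGTCA, found in 11.4% of promoters, was in none of the 8 windows. The same held for the GATA factor motif, spelled GATAAG, found in 5.13% of promoters. Both strands were searched, no match overlapped another, and a match is a description of letters only.

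The comparison of VO with Sham asked what the fistula changed. In the limma fit across all tested genes, 0 of the 8 passed an adjusted p of 0.05, against 4.76% of all 13477 tested genes (2.04% higher and 2.72% lower in VO). At an unadjusted p under 0.05 there were 3 of the 8, Myh6, Myh7 and Tnni1, against 29.3% of all genes. Only Myh6 had groups that did not overlap, against 33.1% of all genes (16.2% higher and 17% lower in VO). The median log2 difference of the 8 genes was -0.434, with 5 below 0, and that of all tested genes was 0.00276. Myh6 was close enough to the threshold for its call to depend on the processing: over all alternatives its adjusted p ran from 0.0337 to 0.975 and its difference stayed between -1.17 and -0.79. It passed with voom on the recovered fragments (adjusted p = 0.0368), as did 1010 of all 13477 tested genes, but none of the other 7 genes.

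The calls on the adult troponins changed without VO 3. Then, with the VO group reduced to 2 libraries, 3 of the 8 genes passed, all lower in VO, against 15.1% of all genes (6.98% higher and 8.1% lower). These were Myh6 at -1.09 ± 0.227 (limma adjusted p = 0.0337), Tnni3 at -0.89 ± 0.218 (adjusted p = 0.039) and Tnnt2 at -1.12 ± 0.264 (adjusted p = 0.0366). VO 3 stood apart by its mitochondrial share, by 17003 genes above 0 against 19619 to 20479 elsewhere, and by the hemoglobin Hbb-bs at 1304 FPKM against 391.1 to 593.2. Their part in the result was not tested. Of the 10 ventricular markers, 5 also passed as lower without VO 3, Myh6 and Tnnt2 among them. Without VO 3 and Sham 2, neither Tnni3 nor Tnnt2 passed (limma adjusted p = 0.0594 and 0.0569). Leaving out VO 1 in place of VO 3 brought Tnni3 to -0.15 and Tnnt2 to -0.36 (adjusted p = 0.794 and 0.528), so the size of both differences followed which VO library was left out. For Myh6, by contrast, VO 3 lay between VO 1 and VO 2.

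What Cyclosporin A changed after the fistula was asked by comparing CsA with VO. In limma 0 of the 8 genes passed the adjusted threshold, as did 0% of all tested genes (also with voom), while 16.5% of all genes and 2 of the 8 had an unadjusted p under 0.05. Those 2 were Myh6, with a log2 difference of 0.75 ± 0.263 (limma adjusted p = 0.237), and Tnni1, with -1.72 ± 0.60 (adjusted p = 0.237). Myh6 was higher in all CsA libraries than in all VO libraries, as were 10.9% of tested genes, while 10.3% were lower, which makes 21.2% without overlap. The remaining values were 0.01 for Myh7, 0.33 for Tnni3, -0.72 for Acta1, 0.00039 for Actc1, 0.52 for Tnnt1 and 0.55 for Tnnt2. The value of Acta1 was -0.00416 without CsA 2, and without VO 1 Tnnt1 was at 0.22 and Tnnt2 at 0.20. The median of the 8 was 0.168, and that of all genes was -0.00134. VO against Sham and CsA against VO share the VO libraries, so opposite signs in them are not separate evidence.

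CsA against Sham asked how far the treated fistula hearts stood from unloaded ones. None of the 8 genes passed in limma, nor did any gene of the table (0%, also with voom). At an unadjusted p under 0.05 there was 1 of the 8, Myh7, against 1.48% of all genes. Myh7 was also the only member without overlap, against 9.74% of all genes (4.8% higher and 4.94% lower in CsA). Myh6 was at -0.32 ± 0.263 and Tnni1 at 0.11 ± 0.60 on the log2 scale (SE; limma adjusted p = 1 for both), each within about its own SE of 0 or little beyond it.

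**Figure D2:**
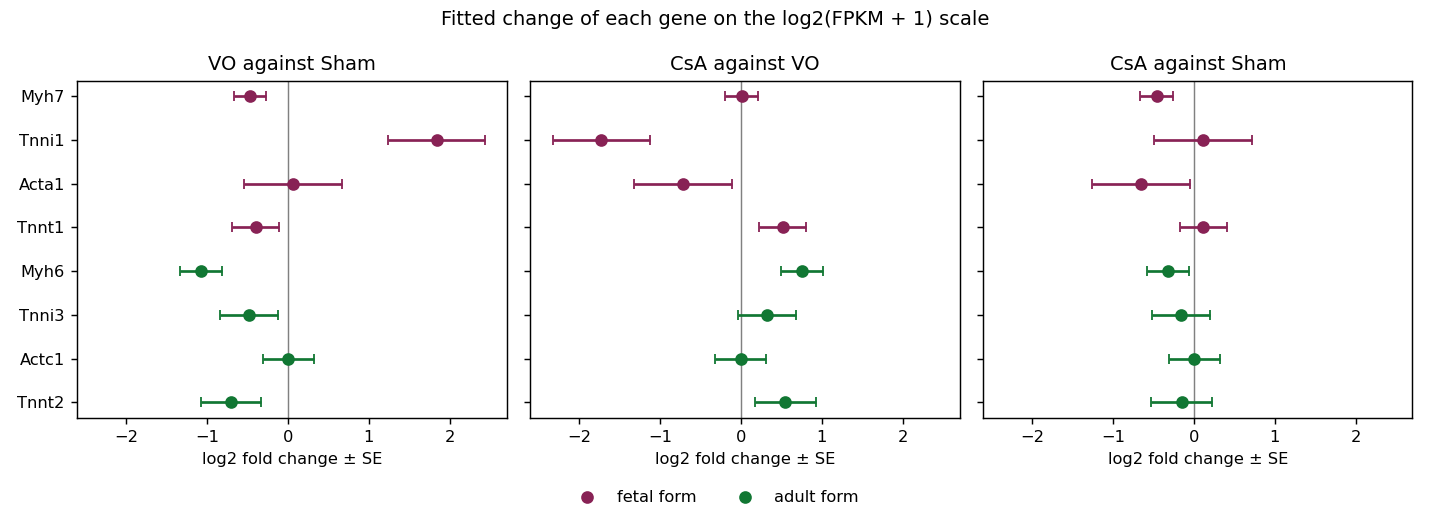
Fitted log2 fold change of each gene on the log2(FPKM + 1) scale in the 3 comparisons, as points with 1 SE from limma. None of the 24 values passed an adjusted p of 0.05; Myh6 at -1.07 and Tnni1 at 1.84 are the farthest from 0 in VO against Sham.

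Ratios within a library do not depend on how that library was scaled, and they were taken as fetal FPKM per 1000 adult FPKM. Tnni1 per 1000 Tnni3 was 0.890, 3.96 and 1.19 in the Sham libraries, 7.50, 26.3 and 8.44 in the VO libraries, and 2.71, 0.517 and 5.09 in the CsA libraries. All VO libraries were above all Sham and all CsA libraries, although neither gene alone separated the groups. The ratio was 7.35-fold higher in VO than in Sham, a log2 difference of 2.88 ± 0.876 (SE), and 6.16-fold lower in CsA than in VO, a log2 difference of -2.62 ± 1.14. Which libraries entered moved these sizes: the first was 3.53 without Sham 2, 2.30 without VO 2 and 1.58 without the 3 libraries high in Myl7, which leaves 1 Sham library. The second was -1.68 without CsA 2, -2.05 without VO 2 and -3.33 without CsA 3. With 3 against 3 libraries the exact two-sided permutation p was 0.1 for both, the smallest this design allows, and 0.4 after adjustment over the 12 ratio comparisons. CsA and Sham overlapped, with a log2 difference of 0.25 ± 1.18 (exact permutation p = 0.9). Even in VO 2, where the fetal form was highest, it made up 2.56% of the summed FPKM of the pair.

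The ratio of Myh7 per 1000 Myh6 was 1.80, 2.55 and 3.23 in the Sham libraries, 4.31, 4.09 and 2.33 in the VO libraries, and 2.30, 1.78 and 2.21 in the CsA libraries. VO 1 and VO 2 were above all other libraries, VO 3 fell within Sham, and all CsA libraries were below all VO libraries. The log2 difference was 0.49 ± 0.374 (SE) in VO against Sham (exact permutation p = 0.3; 0.27 without Sham 1 and 0.77 without VO 3) and -0.73 ± 0.306 in CsA against VO (exact permutation p = 0.1, adjusted 0.4). Myh7 itself was lower in VO than in Sham by mean, and Myh6 was lower in all VO libraries. Without VO 3 the difference in CsA against VO was -1.01 (exact permutation p = 0.1).

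The other ratios did not order the groups. Acta1 per 1000 Actc1 was 5.76, 6.84 and 4.73 in Sham, 4.65, 4.72 and 9.55 in VO and 6.89, 1.40 and 4.52 in CsA, with VO 3 the highest and CsA 2 the lowest. Tnnt1 per 1000 Tnnt2 was 7.97, 13.1 and 8.54 in Sham, 9.14, 14.4 and 8.89 in VO and 17.3, 6.40 and 15.3 in CsA. Log2 differences in VO against Sham were 0.06 ± 0.375 for the actins and 0.13 ± 0.318 for troponin T (SE; exact permutation p = 1 and 0.5). CsA 2 had the lowest value of all 9 libraries in 4 of 4 ratios.

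A test over all 3 groups at once can reach smaller p-values, down to 0.003571 over 1680 assignments. Group membership took 59.39% of the variance of the log2 ratio of Tnni1 to Tnni3 (exact permutation p = 0.0714), 47.43% for Myh7 to Myh6 (exact p = 0.146), 22.35% for Acta1 to Actc1 (exact p = 0.579) and 7.34% for Tnnt1 to Tnnt2 (exact p = 0.796). After adjustment over the 4 pairs the exact p-values were 0.286, 0.293, 0.771 and 0.796. No pair differed between groups beyond the spread of its libraries by this test.

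**Figure D3:**
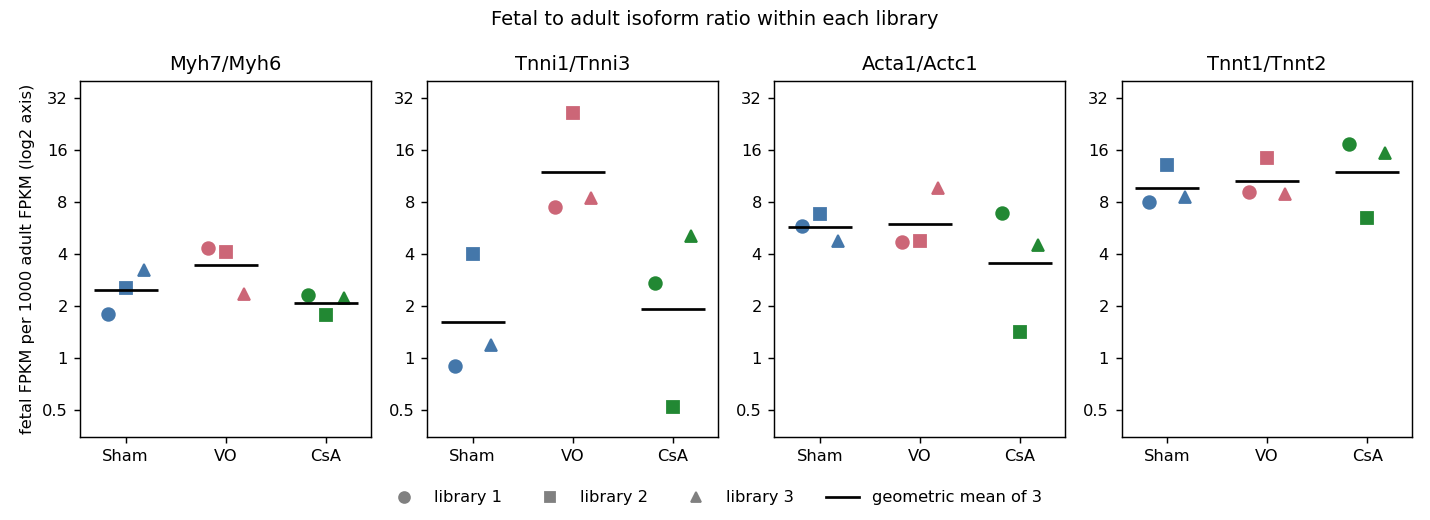
Fetal FPKM per 1000 adult FPKM within each library for the 4 pairs, on a log2 axis, with bars at the geometric mean of 3 libraries. For Tnni1/Tnni3 the VO libraries, from 7.50 to 26.3, lie above all others, and the other pairs show no group above both others.

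Among the 28 couples of genes, Tnni3 and Tnnt2, adult troponins on different chromosomes, had the highest correlation over the 9 libraries. Pearson's r of their log2 levels was 0.976 (permutation p = 5.79e-05, adjusted over 28 couples 0.00162) and Spearman's rho was 0.933 (adjusted permutation p = 0.021). Leaving out VO 1 and VO 2, the libraries farthest from the median, r was 0.895, and with group means removed it was 0.981. An r this high was not particular to the couple. The highest among 9042 other genes was 0.989 for Tnni3, with Dnajc4, and 0.988 for Tnnt2, with Capzb. Tnni3 stood at 2.63 to 3.44 times Tnnt2 in FPKM in all libraries, or 0.921 to 1.2 times per kilobase of coding transcript. Within pairs, Acta1 and Actc1 had r = 0.743 (adjusted permutation p = 0.132) and rho = 0.883 (adjusted p = 0.0421), with r = 0.852 without VO 3 and CsA 2. Actc1 and Tnnt1 had rho = 0.867 (adjusted permutation p = 0.0421) but r = 0.826 (adjusted p = 0.0634), at 0.643 without Sham 3 and VO 1 and 0.986 with group means removed, the highest of the 28 couples on that last measure. Tnni1 and Tnni3 had r = -0.209 (permutation p = 0.595), the relation between the fetal and the adult troponin I.

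**Figure D4:**
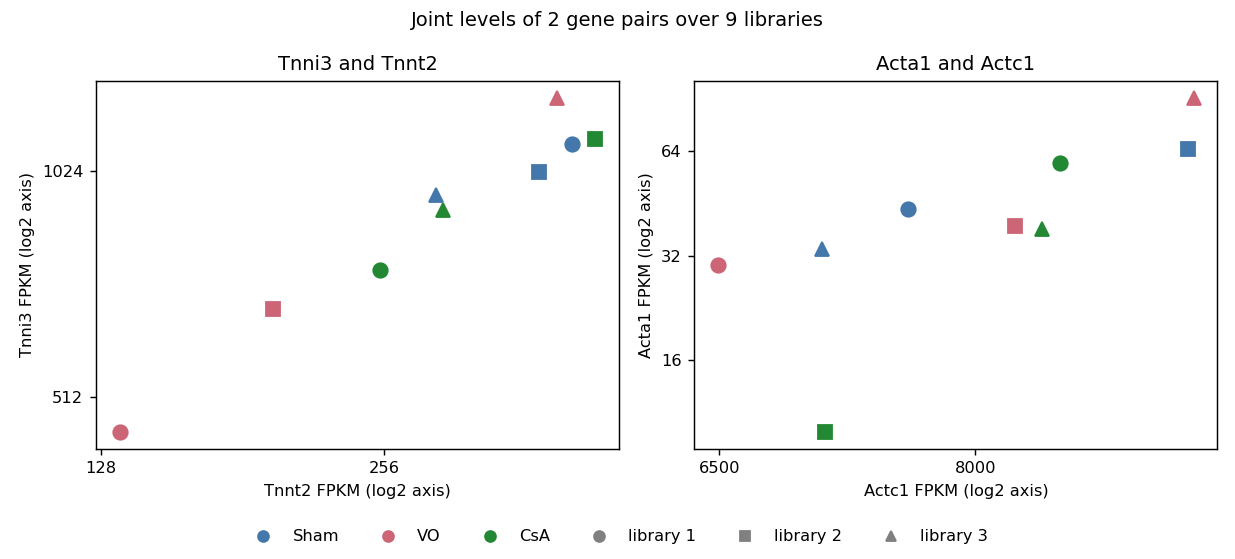
Levels of Tnni3 against Tnnt2 and of Acta1 against Actc1 in the 9 libraries, both in FPKM on log2 axes, coloured by group and marked by library number. The troponins lie along a line from VO 1 to the libraries near 400 FPKM of Tnnt2, and in the actin panel CsA 2 lies below the rest.

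Over all 9 libraries and 9042 candidate protein-coding genes, the levels most like each member, by Pearson's r of log2(FPKM + 1), were found as a description. For Myh6 they were Sirt2 (r = 0.989), a deacetylase, and Bckdha (0.987), a subunit of the enzyme that breaks down branched-chain keto acids. Tnni3 was most like Dnajc4 (0.989) and S100a1 (0.988), a calcium sensor of heart muscle, and Tnnt2 was most like Capzb (0.988), the actin-capping subunit found at the Z disc, and Zfyve19 (0.986). Tnni1 was most like Ppia (0.977), cyclophilin A, which is the protein that Cyclosporin A binds, and Rfc5 (0.974), a replication factor subunit. Likeness was weaker for Acta1, with Ankrd1 (0.883), a stretch-responsive sarcomere protein, and H2-Q4 (0.872). The remaining leaders were Cfl1 (0.929) and Klhdc4 (0.926) for Actc1, Gcn1l1 (0.948) and Letmd1 (0.946) for Myh7, and Alpl (0.967) and Cacnb3 (0.961) for Tnnt1.

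Of 30 other cardiac sarcomere genes, 28 were tested and 0 passed in VO against Sham (limma; 10 at an unadjusted p under 0.05, against 29.3% of all genes, and 0 by voom). Their log2 differences lay below 0 for 19 of 28, with a median of -0.282. In CsA against VO 0 of 28 passed in limma and in voom, and the median was 0.207. An unadjusted p under 0.05 was seen for 2 of 28, against 16.5% of all genes. Lmod3, a leiomodin that acts in actin filament assembly, had the smallest p, with a difference of 0.50 ± 0.211 (adjusted p = 0.281). In CsA against Sham 0 of 28 had even an unadjusted p under 0.05, and the median was -0.108. Without VO 3, 6 of 28 passed in VO against Sham, all lower, against 15.1% of all genes in that fit (8.1% lower), among them Lmod2 at -0.70 ± 0.131 and Tpm2 at -1.08 ± 0.235 (limma adjusted p = 0.0326 and 0.0348).

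Of a list of 34 regulators, 33 were tested. The list held thyroid hormone receptors, MEF2, GATA, TEAD and Pur factors and splicing regulators, and not all of them are known to act on these isoform pairs. In VO against Sham 1 of 33 passed, against 4.76% of all tested genes. The 1 was Esrra, an estrogen-related receptor that drives genes of oxidative metabolism and the adult heart program, and it fell. Esrra was at 36.7, 34.4 and 33.7 FPKM in the Sham libraries, at 15.5, 24.0 and 21.6 FPKM in the VO libraries, and at 27.97, 31.2 and 26.6 FPKM in the CsA libraries, so no 2 groups overlapped. Its log2 difference in VO against Sham was -0.77 ± 0.174 (SE; limma adjusted p = 0.0422). No regulator passed without Sham 1, Sham 2, Sham 3, VO 1, CsA 1 or CsA 3, nor after the GC correction. With voom 3 of 33 passed, against 1010 of all 13477 tested genes. The median of the list was -0.14, with 18 below 0. In CsA against VO 0 of 33 passed in limma and in voom, and the median was 0.129. An unadjusted p under 0.05 was seen for 6 of 33, against 16.5% of all genes. Gata4, a heart muscle transcription factor, had the smallest p there, with a difference of 0.74 ± 0.226 (adjusted p = 0.219). In CsA against Sham 0 of 33 passed or had an unadjusted p under 0.05, with a median of -0.0895 and the smallest p at Rxrb, a partner of thyroid hormone receptors (-0.37 ± 0.179, adjusted p = 1). Without VO 3, 8 of 33 passed in VO against Sham, against 15.1% of all genes. Of these 4 were higher, led by Purb, against 6.98% of all genes, and 4 were lower, led by Esrra and Mef2d, against 8.1%.

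**Figure D5:**
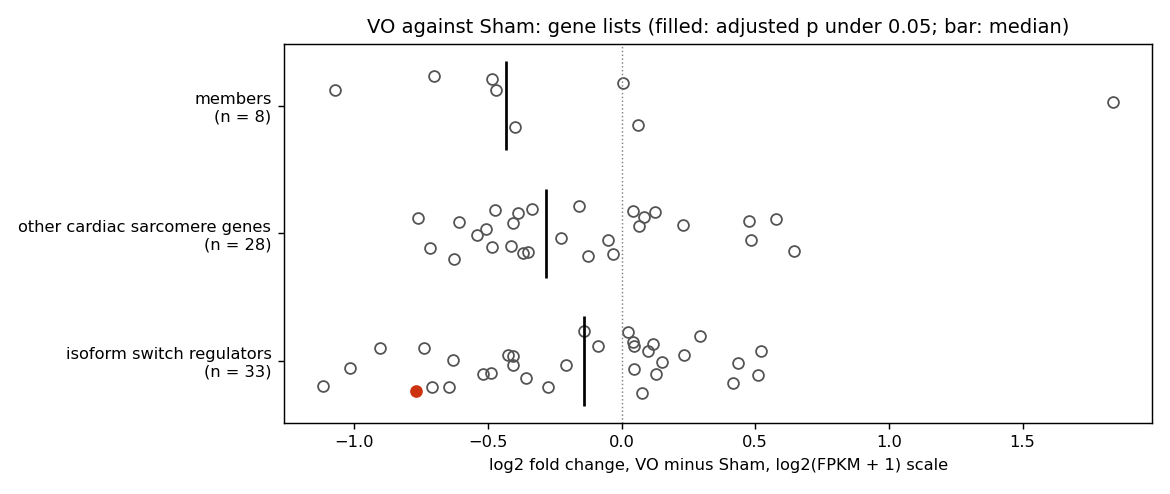
Log2 fold change in VO against Sham of the 8 isoform genes, of 28 other sarcomere genes and of 33 regulators, with 1 circle per gene, bars at the medians (-0.434, -0.282 and -0.14) and a filled circle where the adjusted p was under 0.05. Esrra is the 1 filled circle, and Tnni1 at 1.84 stands alone on the right.

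Skeletal muscle, which also makes Acta1, Tnni1, Tnnt1 and Myh7, was checked with 17 markers. Of these Tnnc2, Myh4, Myh1, Myh2, Myf6 and Myog were at 0 in all 9 libraries, and the sum was carried by Ckm, which heart muscle also makes, at 267.6 to 309.3 FPKM in Sham, 99.4 to 264.8 in VO and 221.1 to 284.6 in CsA. Of 10 embryonic and fast skeletal myosin and troponin genes, 2 were abundant enough to test and 0 passed in any comparison (in VO against Sham both had an unadjusted p under 0.05, and voom called 0). Without VO 3 both passed as lower in VO, Tnni2 at -1.29 and Myl1 at -1.66 (limma adjusted p = 0.0309 and 0.0407), and so did Ckm at -1.30 (adjusted p = 0.0309). In that fit 8.1% of all tested genes passed as lower. Myl1, a fast skeletal light chain and the highest of them, was at 15.95 ± 6.78 FPKM in Sham and 5.28 ± 2.35 in VO (SD, n = 3; limma adjusted p = 0.0596).

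Markers of other cell types were summed in each library. The 11 atrial markers summed to 44.8 to 728.9 FPKM in Sham, 43.6 to 61.0 in VO and 54.0 to 208.7 in CsA, and atria also make Myh6. Without the 3 libraries high in Myl7, Myh6 in VO against Sham was at -0.95 ± 0.549, about as far from 0 but with an adjusted p of 0.975 and 1 Sham library left. Sums in Sham, VO and CsA were 893.4 to 1068, 1126 to 1215 and 947.2 to 1119 FPKM for 10 fibroblast markers, led by Col3a1, and 480.3 to 517.6, 359.6 to 808.6 and 503 to 561.7 FPKM for 10 endothelial ones, led by Fabp4. They were 793.7 to 1113, 625.5 to 782.7 and 797.6 to 883.1 FPKM for 10 smooth muscle and pericyte markers, led by Acta2, and 113.7 to 125.6, 61.8 to 127.5 and 102.7 to 132.5 FPKM for 7 macrophage ones, led by Lyz2. The 7 erythroid markers, led by Hbb-bs, summed to 710.4 to 896.7 FPKM in Sham, 592.9 to 2041 in VO and 666.8 to 1041 in CsA. None of the markers in these 6 lists was at 0 in all libraries. Single markers that passed in VO against Sham were Myh11, Tie1 and Plvap, which fell, and Lum and Fcgr1, which rose (limma adjusted p from 0.0382 to 0.0482). They were 1 of 9 tested smooth muscle and pericyte markers, 2 of 10 endothelial, 1 of 10 fibroblast and 1 of 7 macrophage ones. Of all tested genes 4.76% passed. In the same order of lists, 9 of 9, 5 of 10, 3 of 10 and 4 of 7 markers lay below 0, so most lists went both ways. The part of these cell types in the levels of the 8 genes was not tested.

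The comparison was also repeated with a correction for base composition. The GC content of the 8 transcripts was 48.7% for Tnni1, 50.8% for Tnnt2, 52.3% for Actc1, 54.1% for Tnnt1, 55.8% for Tnni3, 56.2% for Myh7, 56.4% for Myh6 and 57% for Acta1, against a median of 49.4% over tested genes. After removing each library's trend with GC, Myh6 in VO against Sham was at -0.79 ± 0.233 (limma adjusted p = 0.123), Myh7 at -0.19 ± 0.228 (adjusted p = 0.65) and Tnni1 at 1.80 ± 0.596 (adjusted p = 0.142). The ratio of Tnni1 to Tnni3 was 2.58 ± 0.876 higher on the log2 scale after this correction, again with no overlap of VO and Sham.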

How the data were processed

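RNA was extracted with Trizol and 1 µg per sample entered a NEBNext Ultra library kit, per the labels' protocols. The authors deposited FPKM per gene and library. Per the submitters' processing notes, the tools include featureCounts 1.5.0-p3, HISAT2 2.0.5 and StringTie 1.3.3b, with GRCm38 and mm10 as builds and no roles stated. FPKM times the deposited gene length gave whole fragments within 0.1 for 100% of values, so depth is known: 12046288 to 15986747 fragments per library. The depth factor in the deposited FPKM differed from this sum. It was 1.021, 0.9992 and 0.9766 times the sum in Sham and 1.037, 1.07 and 1.078 times in VO. In CsA it was 0.9902, 0.9558 and 1.032 times the sum, so every VO library was above all others. The part of this factor in the levels was not tested. No libraries of a group agreed within sampling noise. Chi-square per degree of freedom was 182.7 for VO 1 with VO 3 and 134 for VO 2 with VO 3. For all other couples within a group it was 11.5 to 26.6. Coordinates of all 8 genes are the same in GENCODE M21, and all 8 were matched by symbol to the RefSeq promoters.

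Values were transformed to log2(FPKM + 1), which understates the change of low genes. The 13477 genes that averaged 0.5 FPKM or more entered limma 3.58.1 (R 4.3.3), with all 9 libraries in 1 fit, a mean-variance trend, no covariate, and two-sided Benjamini-Hochberg adjustment at 0.05. Isoform ratios were compared with exact two-sided permutation tests over libraries. Correlations used all permutations of 9 libraries, on the log2(FPKM + 1) scale. GC content came from GENCODE M21 (99.91% of tested genes), and the correction was a loess trend (span 0.3, degree 1). Steps were tested on simulated data.

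The 8 genes and all lists were chosen with earlier results of these data known. Named were all 8 genes, up to 4 called genes per list and comparison, otherwise the gene with the smallest p, the highest marker and markers at 0 of each list, and the 2 protein-coding genes of at least 2 FPKM most like each member; 1 gene that this rule names is not reported here. Alternatives were pseudocounts of 0.1 and 0.5, other filters and scalings, a replicate block, the GC correction, voom, an atrial score as covariate, only the groups compared, and libraries left out.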

Additional observations from a re-analysis of the deposited data

How the results depend on the processing

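Of 552 values of the 8 genes under alternatives, 497 kept their sign and their side of the threshold, 9 passed that had not (7 of Myh6, 1 each of Tnni3 and Tnnt2, all in VO against Sham) and 46 changed sign, none of which passed a test. All 60 values of the ratio tests over 3 groups stayed outside the threshold, and 15 of 180 ratio differences changed sign. Genes called in VO against Sham numbered 642, with 275 higher. They were 0 with no filter, after the GC correction, with the atrial score as covariate and with only the 2 groups compared, 1010 with voom (605 higher and 405 lower), 3 without the 3 libraries high in Myl7, 1464 without VO 3 and Sham 2, and 0 to 2032 with each library left out. Rescaling without mitochondrially encoded genes called 741, of which 207 higher and 534 lower. In CsA against VO, where 0 were called, 1 passed without VO 3 and Sham 2 and 0 to 1 with each library left out. In CsA against Sham, also 0, there was 1 with the atrial covariate, 3 without the libraries high in Myl7, 5 without VO 3 and Sham 2 and 0 to 3 with each library left out. The alternative without VO 3 and Sham 2, and levels per coding length, were chosen after seeing the data.

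The cause of the changes of sign was not tested. In VO against Sham, Acta1 (0.06) was at -0.0381 with quantile normalization, -0.0187 without mitochondrial genes, -0.000215 with the atrial covariate, -0.44 without the libraries high in Myl7, -0.15 without VO 3 and Sham 2, and -0.40 to 0.38 with each library left out. Actc1 (0.0034) was at -0.0772 without mitochondrial genes, -0.14 with the atrial covariate, -0.25 without the libraries high in Myl7 and -0.12 to 0.15 with each left out. In CsA against VO, Myh7 (0.01) was at -0.0272 with quantile normalization, -0.15 after the GC correction, -0.0614 with voom, -0.19 without VO 3 and Sham 2, and -0.19 to 0.18 with each left out. Actc1 (0.00039) was at -0.000525 with median-of-ratios scaling, -0.23 with quantile normalization, -0.0697 after the GC correction, -0.0974 with voom, -0.0382 without the libraries high in Myl7 and -0.15 to 0.13 with each left out, and Tnni3 (0.33) ran from -0.0119 to 0.73. In CsA against Sham, Tnni1 (0.11) was at -0.0889 with the atrial covariate, -1.202 without the libraries high in Myl7 and -0.34 to 0.58 with each left out. Actc1 (0.0038) was at -0.00538 with voom, -0.0908 with the atrial covariate, -0.29 without the libraries high in Myl7 and -0.0844 to 0.13 with each left out. Tnnt1 (0.12) was at -0.0218 with the atrial covariate, -0.39 without the libraries high in Myl7 and -0.0541 to 0.32 with each left out, Acta1 (-0.66) ran from -1.17 to 0.0571 and Tnnt2 (-0.15) from -0.37 to 0.0109.

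Among log2 ratios, Tnnt1/Tnnt2 in CsA against VO was at -0.0311 as a ratio of FPKM + 1. Without the libraries high in Myl7 it was at -0.00386 in CsA against VO, -0.31 in VO against Sham and -0.31 in CsA against Sham, Tnni1/Tnni3 was at -1.74 in CsA against Sham and Acta1/Actc1 at -0.20 in VO against Sham. Acta1/Actc1 in VO against Sham was at -0.16 without VO 3 and Sham 2. With each library left out, Tnni1/Tnni3 in CsA against Sham ran from -0.45 to 1.201, Acta1/Actc1 in VO against Sham from -0.29 to 0.23, and Tnnt1/Tnnt2 from -0.0939 to 0.35 in VO against Sham and from -0.0899 to 0.63 in CsA against VO.

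With the replicate block, 1 gene passed in VO against Sham and 0 in the other comparisons, and Myh6 in VO against Sham had a limma adjusted p of 0.10. Same-numbered libraries of different groups had correlations of deviations from -0.4 to 0.237, and differently numbered ones from -0.194 to 0.274. Deviations were taken from means of 3 libraries, so these values cannot decide whether the numbers pair the samples. Depth limits Tnni1, at 26 to 818 fragments per library, and Tnnt1, at 43 to 150.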
